A study of Mus musculus with 20 samples.

Results

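The genes described here are those of the cytosolic ribosomal proteins of the mouse, the protein part of the ribosome that works in the cytoplasm. They were chosen by symbol (Rpl and Rps followed by a number, plus Rplp0, Rplp1, Rplp2 and Rpsa), with pseudogenes and the S6 kinases left out. The rule found 84 of the 34620 gene symbols counted, 51 of the large subunit and 33 of the small subunit. Of the 84, 83 passed the filter on low counts and were tested, and Rpl10l, a testis paralog of Rpl10, had 0 counts in all 6 libraries. The 84 include 7 paralogs that stand beside a standard subunit gene (Rpl3l, Rpl7l1, Rpl10l, Rpl22l1, Rpl39l, Rps27l and Rps4y2).

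PolyA RNA was sequenced from frozen, sectioned and microdissected brain of wild-type C57BL/6 males. The precursor stage has 1 striatal library (SP) and 1 hippocampal library (HP), the young stage has 1 library of young medium spiny neurons of the striatum (yMSN) and 1 of young hippocampal CA pyramidal neurons (yCA), and dorsal medium spiny neurons gave 2 libraries (dMSN 1 and dMSN 2). No ages are given, no cells were sorted, and nothing says whether the dMSN pair came from separate animals, so p-values measure only the spread between these libraries, which may be technical. The series also holds 14 bisulfite samples, not analysed here.

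Each cytosolic ribosome carries 1 copy of nearly every ribosomal protein, and cells are known to make these proteins together. Ribosomal protein mRNAs typically begin with a C followed by a run of pyrimidines, the 5′ TOP tract, through which mTORC1 and the RNA-binding protein Larp1 control their translation. The assembly of new ribosomes is known to be most active in growing and dividing cells, while mature neurons also depend on ribosomes for protein synthesis in dendrites and at synapses.

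The start of a ribosomal protein gene is the feature that the family is best known for, so windows around annotated starts are shown for 6 members that carry the tract and for 4 whose change stood apart from the family, all chosen after their values were seen. Of the 4, Rps27l has the tract 1 base past its start and the others have none there, and where RefSeq gives several starts (Rpl22 and Rps27l) 1 is shown. The starts used in these tissues were not measured, so no tract at an annotated start does not mean that the mRNA lacks it. Sequences are from RefSeq, build GRCm38.p6, printed 5′ to 3′ on the gene's strand, with 60 bases before the annotated start and 25 from it onward. Capitals mark a run of at least 5 pyrimidines that begins with C within 5 bases of the start.
Rpl35 (chr2:39005107-39005191, minus strand): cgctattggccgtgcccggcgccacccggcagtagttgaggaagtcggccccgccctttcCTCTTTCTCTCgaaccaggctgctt
Rpl38 (chr11:114668520-114668604, plus strand): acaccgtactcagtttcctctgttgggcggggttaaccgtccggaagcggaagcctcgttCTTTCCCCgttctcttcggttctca
Rplp2 (chr7:141447591-141447675, plus strand): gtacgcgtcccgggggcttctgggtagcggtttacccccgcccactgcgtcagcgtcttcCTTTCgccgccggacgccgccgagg
Rps6 (chr4:86857343-86857427, minus strand): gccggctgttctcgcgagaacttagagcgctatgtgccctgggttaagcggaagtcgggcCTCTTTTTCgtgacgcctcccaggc
Rps10 (chr17:27635220-27635304, minus strand): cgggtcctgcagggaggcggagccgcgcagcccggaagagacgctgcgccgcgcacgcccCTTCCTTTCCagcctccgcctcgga
Rps27 (chr3:90213624-90213708, minus strand): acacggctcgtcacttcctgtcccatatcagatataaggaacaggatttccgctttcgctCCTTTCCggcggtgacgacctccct
Rps27l (chr9:66946026-66946110, plus strand): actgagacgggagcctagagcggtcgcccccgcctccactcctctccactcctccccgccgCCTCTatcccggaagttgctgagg
Rplp0 (chr5:115559407-115559491, plus strand): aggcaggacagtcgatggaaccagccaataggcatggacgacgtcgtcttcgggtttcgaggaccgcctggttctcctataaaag
Rpl22 (chr4:152325666-152325750, plus strand): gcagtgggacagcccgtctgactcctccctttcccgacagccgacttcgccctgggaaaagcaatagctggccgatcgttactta
Rpl7l1 (chr17:46782632-46782716, minus strand): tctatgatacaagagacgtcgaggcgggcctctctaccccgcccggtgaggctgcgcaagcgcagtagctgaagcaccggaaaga

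Windows of 300 bases (250 before the start) were at hand for 63 of the 84 members and for 27025 genes in all. The tract began exactly at the annotated start in 13 of 63 members (20.6%), against 3.01% of all genes, and within 5 bases of it in 29 members (46.0%), against 21.2% of all genes. The letters CCGGAAG, the core of ETS factor sites, were found on either strand in 26 of 63 members (41.3%), against 9.93% of all genes. AAGATGGC, the core of YY1 sites, was found in 6 members (9.52%), against 3.19%. CACGTG, the E-box that Myc binds, was found in 6 members (9.52%), against 8.09%, and TATAAA in 7 members (11.1%), against 15.7%. All motifs were searched on both strands apart from the tract, which was read on the gene's strand, and CCGGAAG read on the other strand holds pyrimidines that can overlap the tract. A match is a description of the letters, not a bound site. Among members with a window, which leaves out Rplp1, Rpl36 and Rpl29, the 3 largest rises in dMSN against yMSN at 5 CPM or more, 27 standard members with it within 5 bases of the start had a median log2 change of -0.36 in young against precursor tissue and 0.82 in dMSN against yMSN, and 30 without it had medians of -0.34 and 0.85.

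Libraries held between 31282185 and 152347673 counts assigned to genes, the dMSN pair being the deepest. Reads that aligned to several places were not assigned and made up between 17.3% (dMSN 1) and 27.3% (HP) of all reads in the files, and the tables hold 163 symbols of ribosomal protein pseudogenes. Only some cell type markers separated the lineages. The 8 hippocampal or pallial markers summed to 162 CPM (counts assigned to a gene over those of the library, scaled by TMM) in SP, below the 308 CPM of HP, and to 612 CPM in yMSN, below the 1051 CPM of yCA. In SP the 9 striatal or subpallial markers summed to 383 CPM, close to the 386 CPM of HP, and in yMSN to 1239 CPM, below the 1487 CPM of yCA. The 9 medium spiny neuron markers summed to 6361 and 6355 CPM in the dMSN pair, against 186 CPM for yMSN and 245 CPM for yCA, and in the dMSN pair 7 oligodendrocyte markers also summed to 8462 and 7207 CPM, against 125 CPM in yMSN. Other classes differed too: 6 astrocyte markers summed to 1508 and 1621 CPM in the dMSN pair, against 465 CPM in yMSN, and 6 microglia markers to 552 and 507 CPM, against 84.8 CPM in yMSN. The 8 cycling cell markers summed to 3464 and 3429 CPM in SP and HP, 894 and 792 CPM in yMSN and yCA, and 96.0 and 107 CPM in the dMSN pair. The 10 skeletal muscle markers summed to 12.2 and 11.8 CPM in SP and HP, 2437 and 6633 CPM in yMSN and yCA, and 42.5 and 47.1 CPM in dMSN 1 and dMSN 2. The 10 erythroid markers summed to 2173 and 2092 CPM in SP and HP, 781 and 382 CPM in yMSN and yCA, and 3.66 and 3.56 CPM in the dMSN pair. The young libraries thus held transcripts of muscle and blood, and the precursor libraries held more of blood and little of muscle. In bulk tissue fewer cells of a type and less RNA per cell cannot be told apart. The part of these other cell types in the results on ribosomal proteins was not tested.

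Ribosomal protein genes took 2.67% of assigned counts in SP and 2.97% in HP, 2.62% in yMSN and 1.85% in yCA, and 3.34% in dMSN 1 and 2.65% in dMSN 2. The share was lowest in yCA, where the exact (Clopper-Pearson) 95% interval ran between 1.85% and 1.86%, an interval that covers counting error only. In the young libraries the share averaged 2.24%, against 2.82% in the precursor libraries, a difference that the exact two-sided permutation test could not call (p = 0.333, the smallest p that 2 against 2 libraries can give). The dMSN pair averaged 2.99% ± 0.493 (SD, n = 2), against 2.53% in the other 4 libraries (exact two-sided permutation p = 0.4, where 0.133 is the smallest possible). The gap within the dMSN pair was larger than the gap between SP and HP. Large subunit genes took 2.09% and 1.65% of counts in the dMSN pair, against 1.504% in yMSN, and small subunit genes took 1.26% and 0.992% in the dMSN pair, against 1.12% in yMSN.

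**Figure D1:**
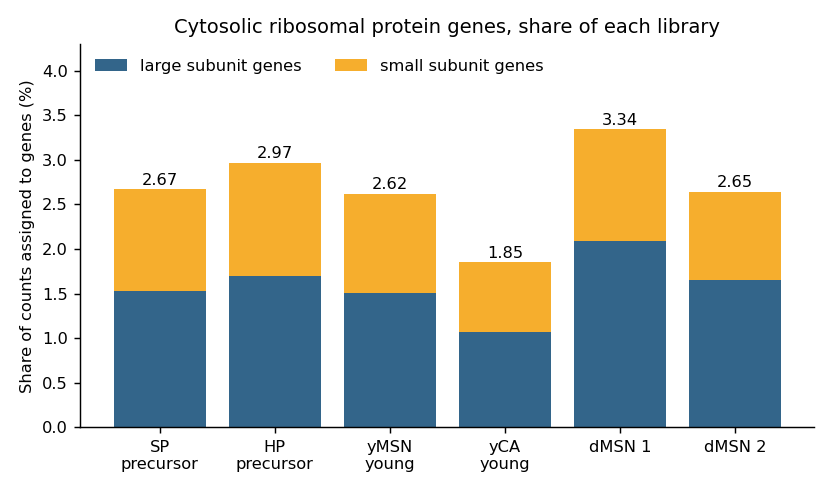
Bars give the share of counts assigned to genes (%) that fell on cytosolic ribosomal protein genes in each of the 6 libraries, split into large and small subunit genes, with the total above each bar. The yCA library is lowest at 1.85% and dMSN 1 highest at 3.34%.

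Young tissue was compared with precursor tissue by taking the lineages as the replication. Part of the spread also came from the dMSN pair, which lies outside this comparison. Members had a median log2 change of -0.35, and 81 of 83 were below 0, with most of this coming from the hippocampal pair, as the single pairs below show. Cycling and erythroid markers were also lower in the young libraries, and muscle markers higher, and their part was not tested. The changes of members lay close together, with an interquartile range of 0.22 log2 units, against 1.14 among the 5448 genes with a mean of at least 50 CPM, whose median was -0.04. Few single members passed the test. By edgeR's quasi-likelihood test with Benjamini-Hochberg adjustment, 3 members fell (Rpl7l1, Rps2 and Rps27l), against 13.7% of all genes tested that fell, and 1 member rose (Rpl3l), against 21.7% that rose, and 13 members had an unadjusted p below 0.05. How the share of members that fell stood to that of all genes turned with the tool: with DESeq2 25 members fell (30.1%, against 19.7% of all genes), with 1 mean per cell group 20 did (against 3940 of 19192 genes), and with the RLE scaling in edgeR 11 did (13.3%, against 17.6%). The median was -0.48 with DESeq2 and with RLE, where the median of all genes was also lower by 0.12 to 0.14 than with TMM.

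Between single libraries, which allow no test, members had a median log2 ratio of -0.05 in yMSN over SP and -0.67 in yCA over HP, with interquartile ranges of 0.28 and 0.23. In yCA 82 members were below HP, as were 2745 of the 5448 genes with a mean of at least 50 CPM. The exact 95% counting interval of all 82 members lay below 0. For yMSN over SP, the interval of the ratio lay wholly below 0 for 45 members and wholly above 0 for 24. Among standard members the ratios ran between -0.71 (Rps2) and 0.34 (Rpl38) in yMSN over SP, and between -1.34 (Rps2) and -0.15 (Rpl15) in yCA over HP. The yCA library was the lowest of all 6 for 75 members. Counts by interval and by lowest library were not made for all genes. Skeletal muscle markers were also higher in yCA than in yMSN, as given above, and their part in this was not tested.

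**Figure D2:**
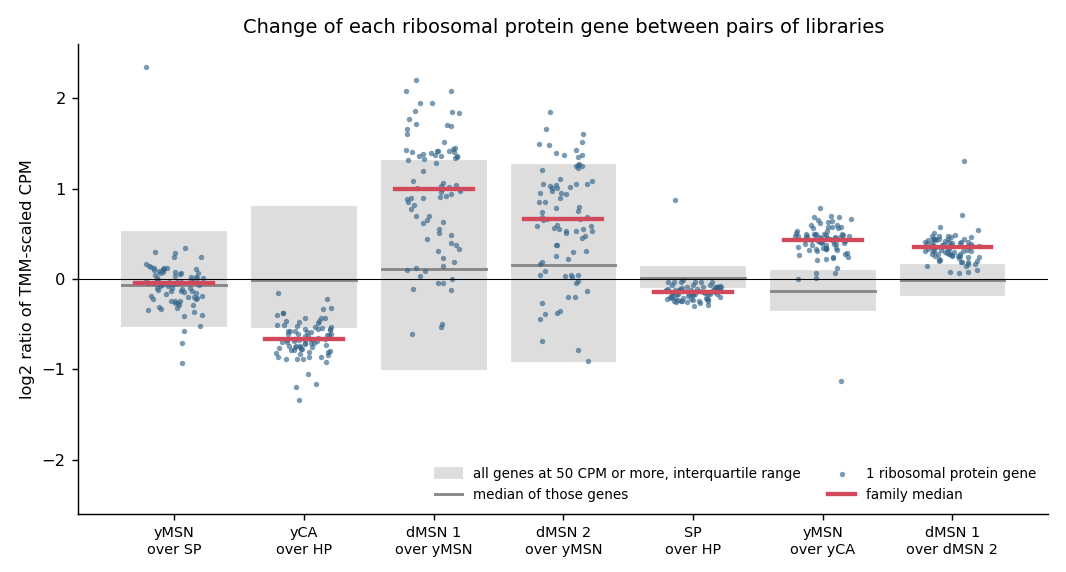
Each blue point is 1 of 83 ribosomal protein genes, placed by its log2 ratio of TMM-scaled CPM between the named libraries, with the family median in red and the median and interquartile range of all genes at 50 CPM or more in grey. Members form a narrow band in yCA over HP around -0.67 and a wide one in both dMSN libraries over yMSN. Up to 2 points per pair lie outside the axis, at log2 ratios beyond 2.6 in size.

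The difference of the young changes between lineages was tested directly, with the spread taken from the dMSN pair. The median difference, yMSN over SP minus yCA over HP, was 0.59 log2 units, 82 of 83 members were above 0, and the median of all genes was 0.02. Single members did not pass: 1 was called higher, the low-count paralog Rpl39l, against 3.12% of all genes. It passed the filter on low counts only through yMSN, where it is high. None was called lower, against 2.08%, and 8 members had an unadjusted p below 0.05. Rpl28, a large subunit member, had 183 CPM in yMSN against 149 in SP, and 107 CPM in yCA against 169 in HP, with a difference of 0.96 (SE 0.37, edgeR adjusted p = 0.198). This test had little reach, since in simulated data it recovered 3% of 2-fold and 52% of 4-fold differences.

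Of the 3 members that fell in young tissue, Rpl7l1 fell furthest. Rpl7l1, a paralog of Rpl7 known in human cells for its part in making the large subunit, had 69.0 CPM in yMSN and 68.5 CPM in yCA, against 131 (SP) and 157 CPM (HP) in the precursors. Both young values lay near 69, well below both precursor values (log2 change -1.06, SE 0.15, edgeR adjusted p = 0.0065). Rpl7 itself had 517 CPM in yMSN and 446 CPM in yCA, against 622 (SP) and 681 CPM (HP) in the precursors, and did not pass (log2 change -0.44, adjusted p = 0.119).

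Rps2, a small subunit protein near the site where mRNA enters the ribosome, had 307 CPM in yMSN and 230.1 CPM in yCA, against 501 (SP) and 583 CPM (HP) in the precursors. The groups did not overlap, and the log2 change was -1.02 (SE 0.25, edgeR adjusted p = 0.0309). Rps27l, a paralog of Rps27 that p53 is known to induce in human cells, had 35.3 CPM in yMSN and 26.1 CPM in yCA, against 52.6 (SP) and 58.5 CPM (HP) in the precursors (log2 change -0.87, SE 0.22, adjusted p = 0.0315). Rps2 and Rps27l were no longer called without HP or without either dMSN library, with adjusted p between 0.0657 and 0.102.

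Next lowest were Rps4y2 (log2 change -0.69, edgeR adjusted p = 0.106) and Rpl12, a protein at the base of the ribosomal stalk (log2 change -0.68, adjusted p = 0.0815), neither called. At the other end Rpl38, a large subunit protein known in the mouse for its part in translating Hox mRNAs, had 129.7 CPM in yMSN and 94.2 CPM in yCA, against 102 (SP) and 122 CPM (HP) in the precursors. The groups overlapped, and its log2 change was -0.01 (adjusted p = 0.973), with the sign turning when libraries were scaled by size alone. Rpl15, a large subunit protein, kept within a narrow range, with 195 CPM in yMSN and 196 CPM in yCA, against 200.2 (SP) and 218 CPM (HP) in the precursors (log2 change -0.09, adjusted p = 0.651).

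Striatal libraries were set against hippocampal ones over both stages. No member was called by edgeR, which called 0% of all genes in either direction here, while 826 of 19192 genes and 0 members had an unadjusted p below 0.05, and DESeq2 and limma voom also called 0 members. The median log2 difference over members was 0.13, but without yCA or without yMSN it was -0.15, and without HP or SP it was 0.44. The precursor and young pairs therefore pointed opposite ways: the median was -0.15 in SP over HP and 0.44 in yMSN over yCA.

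Dorsal medium spiny neurons were compared with young ones next, with 1 mean per cell group. Most of the family stood higher in dMSN: 56 of 83 members rose, against 32.1% of all genes. The 4 that fell were Rplp0, Rpl22, Rps27l and Rpl39l, against 35.4% of all genes, and Rpl39l passed the filter only through yMSN. Scaling by library size alone gave 30 members higher and 14 lower, and 21.6% and 48.1% of all genes. The median log2 change was 0.83 with TMM, where all genes had -0.11, and 0.26 by library size alone, where all genes had -0.68. Genes with a mean of at least 50 CPM had a median of 0.15 with TMM, and 41.4% of them were called higher and 34.2% lower. In dMSN 1 and dMSN 2 taken singly, the median log2 ratio over yMSN was 1.00 and 0.66.

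The interquartile range of members was 0.89 log2 units, against 2.21 among genes with a mean of at least 50 CPM, where the young step had 0.22 against 1.14. Of 83 members, 71 were above 0, as were 2896 of the 5448 genes with a mean of at least 50 CPM. In dMSN 35 members were at least 2-fold higher, a count not made for all genes. The upper quartile of the log2 change was 1.13 over all genes and 1.28 over those with at least 50 CPM, so rises of that size were common. The median was 1.16 for the 50 large subunit members tested and 0.75 for the 33 of the small subunit. Large subunit members counted 34 risen and 3 fallen, and small subunit members 22 risen and 1 fallen. By library size alone these counts were 25 risen and 7 fallen in the large subunit, and 5 risen and 7 fallen in the small one. The 52 members with a listed pseudogene had a median of 0.99, and the 31 without one had 0.55. Ribosomal protein pseudogenes took 0.0221% and 0.0170% of counts in dMSN 1 and dMSN 2, against 0.00179% in yMSN, and the part of read placement in the change was not tested.

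**Figure D3:**
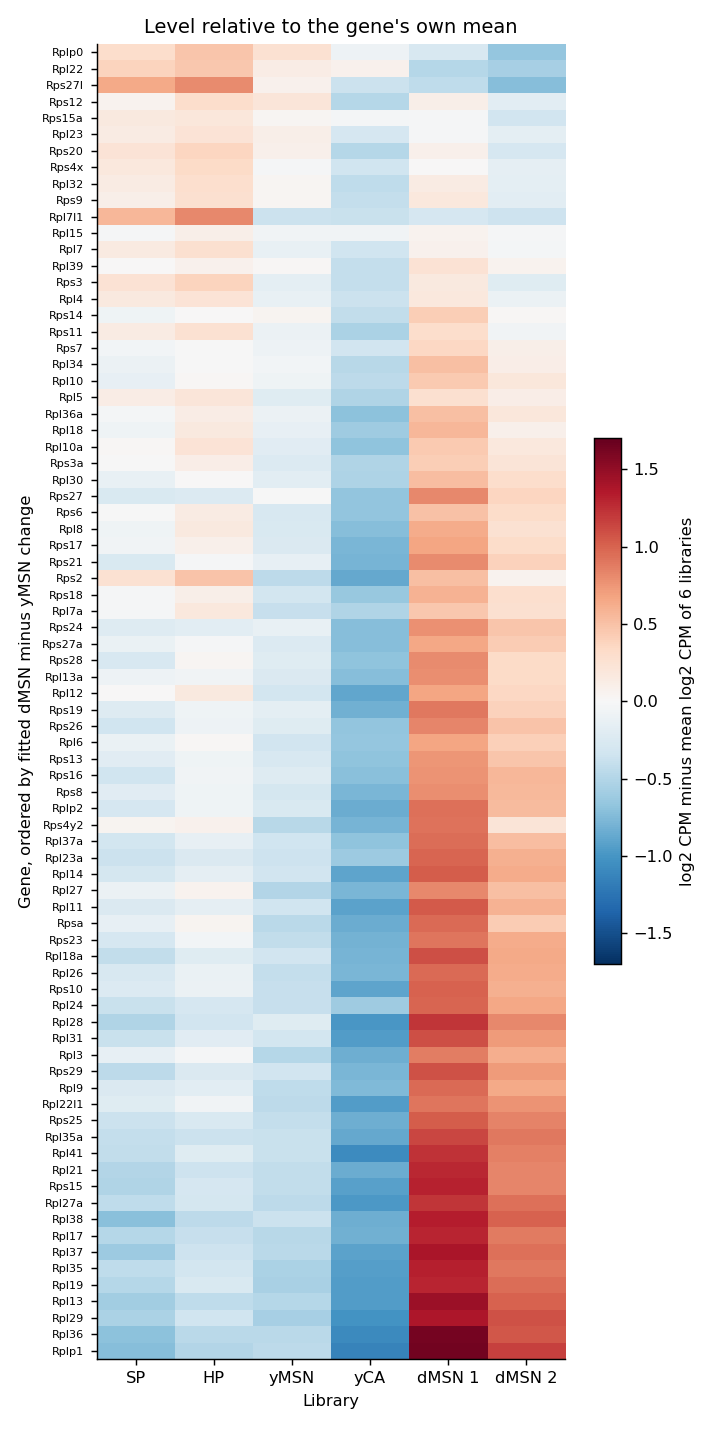
Rows are 80 tested members with a mean of at least 5 CPM, ordered by fitted dMSN minus yMSN change, and columns are the 6 libraries. Colour gives log2 CPM minus the gene's mean over the 6 libraries, so red is above and blue below its own mean. Rplp0, Rpl22 and Rps27l at the top are below their means in the dMSN pair, while Rplp1 and Rpl36 at the bottom are far above theirs.

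The ribosomal stalk, which recruits elongation factors, showed the contrast within the family most plainly. Rplp0, the scaffold that anchors the stalk, had 518 CPM in dMSN 1 and 397 CPM in dMSN 2, against 747 CPM in yMSN. Both dMSN libraries were below yMSN, and Rplp0 fell by 0.71 on the log2 scale (SE 0.23, edgeR adjusted p = 0.0177). Rplp1, which binds Rplp0 as a pair with Rplp2, had 1676 and 1208 CPM in the dMSN pair, against 396 CPM in yMSN. Both were far above yMSN, and its rise of 1.86 was the largest in the family among members with at least 5 CPM (SE 0.28, adjusted p = 7.05e-05). Rplp2 had 607 and 458 CPM in the dMSN pair, against 264 CPM in yMSN (log2 change 1.01, SE 0.24, adjusted p = 0.00277), a rise not called by library size alone. As a share of all ribosomal protein counts, which no scaling between libraries can alter, Rplp0 had 1.22% and 1.19% in the dMSN pair, against 3.35% in yMSN, and Rplp1 had 3.96% and 3.63%, against 1.78%.

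Other large subunit members rose about as much as Rplp1. Rpl36 had 431 CPM in dMSN 1 and 289.6 CPM in dMSN 2, against 102 CPM in yMSN (log2 change 1.83, SE 0.27, edgeR adjusted p = 6.94e-05). Rpl29 had 436 and 355 CPM in the dMSN pair, against 113 CPM in yMSN (log2 change 1.81, SE 0.24). Rpl13 had 899 and 653 CPM, against 234 CPM in yMSN (log2 change 1.73, SE 0.26). Rpl19, which forms a bridge to the small subunit, had 795 and 621 CPM, against 220.1 CPM in yMSN (log2 change 1.69, SE 0.25). All 4 were more than 2-fold above yMSN in both dMSN libraries, and all were called with each scaling tried.

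Members whose starts are printed above with a pyrimidine tract did not share 1 size of change. Rpl35 (log2 change 1.66, SE 0.25) and Rpl38 (1.54, SE 0.23) stood far above the family median. Rps10 (1.22, SE 0.24), Rps6, the target of the S6 kinases (0.68, SE 0.22), and Rps27 (0.62, SE 0.24) rose less, and these 5 had edgeR adjusted p between 7.59e-05 and 0.0362. Rps27a, made as a fusion to ubiquitin, had 437 and 372 CPM in dMSN, against 236 CPM in yMSN (log2 change 0.78, adjusted p = 0.00801), and Rpsa, also known as a laminin receptor, had 1071 and 737 CPM, against 397 CPM (log2 change 1.19, adjusted p = 0.00194). Rps27, Rps27a and Rpsa were not called by library size alone. Only 5 of the 33 small subunit members were called higher under that scaling, with a median of 0.18, and the value of Rps6 there is not given here.

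Rpl22 and its paralog Rpl22l1 moved in opposite directions. Rpl22, an RNA-binding protein known in the mouse to repress Rpl22l1, had 161 CPM in dMSN 1 and 153 CPM in dMSN 2, against 247 CPM in yMSN. The dMSN values lay close together below yMSN and below all 3 other libraries (log2 change -0.65, SE 0.20, edgeR adjusted p = 0.0120). Rpl22l1 had 121 and 109 CPM in the dMSN pair, against 47.3 CPM in yMSN (log2 change 1.28, SE 0.21, adjusted p = 1.69e-04). The rise was more than 2-fold in both dMSN libraries.

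The other paralogs were set beside their parent genes, and the difference between paralog and parent was not tested. Rps27l had 25.03 and 20.5 CPM in the dMSN pair, against 35.3 CPM in yMSN, and fell by 0.63 (SE 0.22, edgeR adjusted p = 0.0205), while Rps27 rose. That fall was not called by DESeq2 (adjusted p = 0.0901) or limma voom (adjusted p = 0.0517). Rpl7l1 had 73.5 and 70.2 CPM in the dMSN pair, against 69.0 CPM in yMSN (log2 change 0.06, adjusted p = 0.808), and was lower than yMSN when scaled by library size alone (log2 change -0.51, adjusted p = 0.0320). Rpl7 had a log2 change of 0.14 (adjusted p = 0.596), which was -0.43 by library size alone. Rps4y2, which RefSeq lists as a transcribed pseudogene under the symbol Rps4l, had 66.9 and 40.9 CPM, against 25.4 CPM in yMSN (log2 change 1.09, adjusted p = 0.00495), while Rps4x had -0.05 (adjusted p = 0.852), or -0.62 by library size alone (adjusted p = 0.0213). Reads of such near-identical copies may be split between them or lost as multiply aligned, so paralog values are uncertain.

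The paralog Rpl3l, known from striated muscle, was near the counting floor. It had 1 count in SP and 0 in HP, 11 in yMSN and 23 in yCA, and 153 and 115 in dMSN 1 and dMSN 2. In CPM that is 0.253 in yMSN and 0.591 in yCA, against 0.0252 in SP and 0 in HP, and Rpl3l rose in young tissue (edgeR adjusted p = 0.0195). It was no longer called without yCA, HP or either dMSN library, with adjusted p between 0.0612 and 0.0700. The muscle markers were higher in yCA than in yMSN too, and their part in this rise was not tested. In dMSN Rpl3l had 1.27 and 0.993 CPM, and it rose against yMSN (log2 change 2.15, SE 0.68, edgeR adjusted p = 0.0141). That call was lost with DESeq2 (adjusted p = 0.328) and by library size alone (adjusted p = 0.0556). The median of the muscle markers went the other way, from 171 CPM in yMSN to 1.16 and 1.01 CPM in the dMSN pair. Rpl3, its parent, had 942 and 788 CPM in dMSN, against 367 CPM in yMSN (log2 change 1.24, SE 0.24, adjusted p = 6.14e-04).

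Rpl39l, a paralog known from male germ cells, had 54 counts in yMSN, 6 in HP, 8 in dMSN 1, 1 in dMSN 2, and 0 in SP and yCA. It was thus above 10 counts in yMSN alone and passed the filter on low counts through that library. Its tests against yMSN are therefore no independent support for a difference. It was lower in dMSN, with 0.0665 and 0.00863 CPM, against 1.24 CPM in yMSN (edgeR adjusted p = 4.32e-04), but not with DESeq2 (adjusted p = 0.138). The 5 testis germ line markers summed to 2.14 CPM in yMSN, against 7.46 and 7.72 CPM in the dMSN pair. Rpl39, its parent, had a log2 change of 0.14 in dMSN against yMSN (adjusted p = 0.561), or -0.43 by library size alone.

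**Figure D4:**
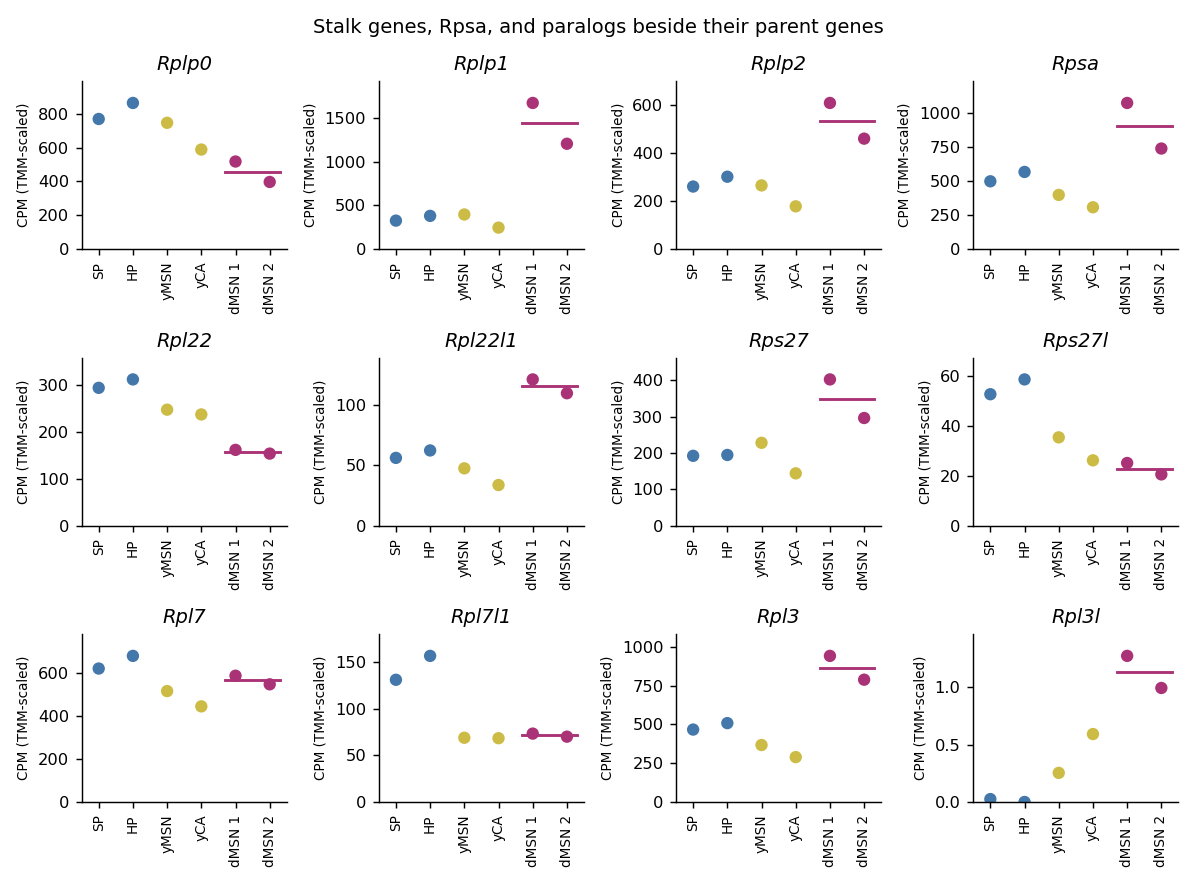
Points give TMM-scaled CPM in each of the 6 libraries (precursor blue, young yellow, dMSN purple with a line at the mean of the pair), 1 gene a panel, each with its own axis from 0. Rplp0 is lower and Rplp1 higher in dMSN than in yMSN, Rpl22 lower and Rpl22l1 higher, and Rpl7l1 stands at about 70 CPM in all but the precursor libraries.

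Not every member changed. In dMSN against yMSN, 23 members did not pass, among them Rps12 (292 and 242 CPM in dMSN, against 317 CPM in yMSN, log2 change -0.25, edgeR adjusted p = 0.327), Rpl10 (log2 change 0.39, or -0.18 by library size alone, adjusted p = 0.135) and Rpl15 (log2 change 0.08, adjusted p = 0.750). Both dMSN libraries were below yMSN for Rps12, and by library size alone it was called lower (adjusted p = 0.00456). Rps2, lower in young tissue, had 595 and 438 CPM in dMSN, against 307 CPM in yMSN (log2 change 0.75, adjusted p = 0.0175), a rise not called by library size alone.

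Over the whole striatal course, dMSN was set against SP, a comparison that shares the dMSN pair with the last one. Here 48 members rose, against 39.1% of all genes, and 4 fell, against 33.1%, with a median of 0.85. Library size alone gave 31 risen and 15 fallen, 31.4% and 40.8% of all genes, and a median of 0.36. Rplp1 had the largest rise among members with at least 5 CPM (2.15, SE 0.28, edgeR adjusted p = 1.87e-05). The 4 that fell were Rps27l (-1.21, SE 0.21), Rpl22 (-0.90, SE 0.20), Rpl7l1 (-0.87, SE 0.19) and Rplp0 (-0.75, SE 0.23), with adjusted p between 2.41e-04 and 0.0119. Across all 6 libraries, 59 members had both dMSN values above all 4 others, and 3 had both below. The share of all genes with these patterns was not computed.

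The dMSN pair itself differed for the whole family. All 83 members were higher in dMSN 1 than in dMSN 2, with a median log2 ratio of 0.35 and an interquartile range of 0.15, while the median of all genes was 0.00. Reads aligned to several places made up 17.3% in dMSN 1 and 21.0% in dMSN 2, and the part of this difference was not tested. Members share this deviation, so they are not independent of each other.

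Genes that work with the ribosome were described from lists of related genes, with the all-gene percentages above as background. Of 76 mitochondrial ribosomal protein genes, which serve the separate ribosome of mitochondria, 74 rose in dMSN against yMSN and none fell (median log2 change 1.49), and by library size alone 59 rose and 1 fell. Mrps12, of the small mitochondrial subunit, had 136 and 121 CPM in dMSN, against 17.6 CPM in yMSN (log2 change 2.87, SE 0.24, edgeR adjusted p = 5.23e-07). Mrps36, also known as a part of the oxoglutarate dehydrogenase complex, had 44.5 and 45.5 CPM, against 5.69 CPM in yMSN (log2 change 2.98, SE 0.27, adjusted p = 1.24e-06). In young against precursor tissue 23 of the 76 fell and none rose (median -0.44), or 39 with RLE scaling and 45 with DESeq2, among them Mrps22 (-0.87, SE 0.16, adjusted p = 0.0127), which was not called without either dMSN library.

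Most genes of ribosome assembly fell in the young step. Of 49 tested, 39 fell and none rose in young against precursor tissue (median log2 change -0.81). Dkc1, the pseudouridine synthase of rRNA, had 42.3 CPM in yMSN and 44.1 CPM in yCA, against 122 (SP) and 142 CPM (HP) in the precursors (log2 change -1.61, SE 0.18, edgeR adjusted p = 0.00381). Heatr1, needed for early pre-rRNA processing, had 41.6 and 49.1 CPM in the young libraries, against 121 and 133 CPM in SP and HP (log2 change -1.49, SE 0.14, adjusted p = 0.00271). Cycling markers, whose sums are given above, were lower in the young libraries too, and their part in this and in the fall of initiation factors was not tested. In dMSN against yMSN 12 assembly genes rose and 12 fell (median 0.06), and by library size alone 4 rose and 25 fell. Sbds, which frees new large subunits for translation, had 156 CPM in each of the dMSN pair, against 29.7 CPM in yMSN (log2 change 2.39, SE 0.22, adjusted p = 1.32e-06), and Mdn1, a remodelling ATPase of the pre-large subunit, had 19.7 and 17.4 CPM, against 66.9 CPM in yMSN (log2 change -1.85, SE 0.19, adjusted p = 3.66e-06).

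Of 26 initiation factor genes, 17 fell and none rose in young against precursor tissue (median log2 change -0.63), among them Eif4g1, the scaffold of cap binding (-1.11, SE 0.18, edgeR adjusted p = 0.00926). In dMSN against yMSN 9 rose and 4 fell (median 0.29), and by library size alone 3 rose and 7 fell, with a median of -0.28. Eif1, which guards start codon choice, had 816 and 809 CPM in dMSN, against 189.9 CPM in yMSN (log2 change 2.10, SE 0.24, adjusted p = 7.12e-06). Eif4g2 had 353 and 410.4 CPM, against 1855 CPM in yMSN (log2 change -2.28, SE 0.23, adjusted p = 3.21e-06).

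Of 24 other genes known for TOP tracts or a role in elongation, 9 fell and 2 rose in young tissue (median log2 change -0.43), and 6 rose and 7 fell in dMSN against yMSN (median -0.13). By library size alone 2 rose and 14 fell in dMSN against yMSN, with a median of -0.70. Npm1, a nucleolar chaperone, had 419 CPM in yMSN and 398 CPM in yCA, against 1139 (SP) and 1332 CPM (HP) in the precursors (log2 change -1.59, SE 0.19, edgeR adjusted p = 0.00409), and Nap1l1 fell by 1.53 (SE 0.18, adjusted p = 0.00432). Eef1a2, the elongation factor form of mature neurons and muscle, had 79.2 CPM in yMSN and 93.2 CPM in yCA, against 2.79 (SP) and 1.41 CPM (HP) in the precursors (log2 change 5.40, SE 0.38, adjusted p = 0.00172), and 2841 and 2596 CPM in the dMSN pair (log2 change against yMSN 5.10, SE 0.30, adjusted p = 3.42e-08). Pabpc1, the poly(A)-binding protein, fell in dMSN to 159 and 169 CPM, against 417 CPM in yMSN (log2 change -1.35, SE 0.21, adjusted p = 1.01e-04).

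Of 4 ribosomal protein genes with other symbols, 3 rose and 1 fell in dMSN against yMSN. Fau, made as a fusion to a ubiquitin-like protein, had 614 and 443 CPM in dMSN, against 160.3 CPM in yMSN (log2 change 1.72, SE 0.26, edgeR adjusted p = 7.98e-05), and Rpl36al also rose. Gnb2l1, the older symbol of the signalling scaffold Rack1, had 452 and 366 CPM in dMSN, against 768 CPM in yMSN, and fell by 0.91 (SE 0.23, adjusted p = 0.00363). In young against precursor tissue edgeR called none of the 4, and DESeq2 called 1 lower.

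Of 25 genes of upstream control, such as the mTORC1 pathway and Myc proteins, 3 rose and 12 fell in dMSN against yMSN (median log2 change -0.39), or 1 and 17 by library size alone, and 2 rose and 5 fell in young tissue, or 2 and 8 with RLE scaling. Eif4ebp2, the neuronal repressor of cap binding that mTORC1 inhibits, had 2.94 and 3.90 CPM in dMSN, against 59.5 CPM in yMSN (log2 change -4.12, SE 0.22, edgeR adjusted p = 1.48e-08). Mycn, a driver of ribosome production in neural precursors, had 8.07 and 9.63 CPM, against 42.9 CPM in yMSN (log2 change -2.28, SE 0.20, adjusted p = 9.64e-07).

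**Figure D5:**
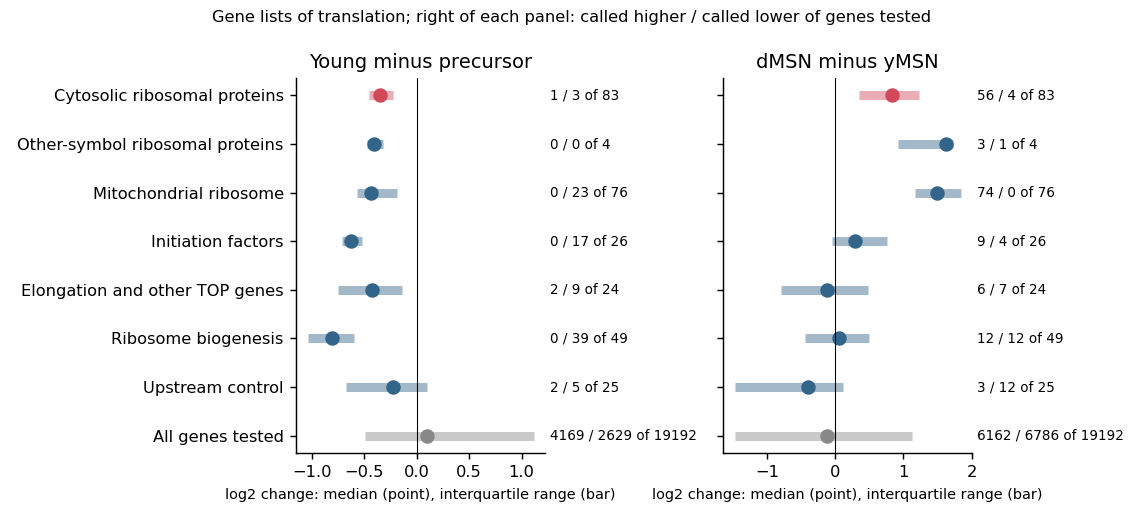
Points give the median log2 change of each gene list and bars its interquartile range, in young minus precursor (left) and dMSN minus yMSN (right), with the numbers called higher and lower of those tested printed at the right of each panel. Ribosomal proteins and the mitochondrial ribosome lie right of 0 in dMSN minus yMSN, while assembly genes centre at 0.06 there (-0.51 by library size alone) and at -0.81 in young minus precursor.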

How the data were processed

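PolyA libraries were made with a TruSeq kit, per the labels' protocols. For each library the authors deposited unnormalised counts of reads for each gene symbol, and the closing summary lines (no feature, ambiguous, not unique and the like) were kept out of library sizes and tests; reads with no feature made up between 5.34% and 9.81%. The submitters' processing notes name TopHat2 2.0.2, TopHat, Bowtie 1.0.0, HTSeq, edgeR, Bismark and methylKit and the builds mm9 and NCBIM37, without roles, and strand use is not given in the sources used here. Reads aligned to several places were not counted.

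The tests used edgeR 4.0.16 under R 4.3.3 (quasi-likelihood F test, TMM, filterByExpr, Benjamini-Hochberg over 19192 genes, threshold 0.05). CPM values are TMM-scaled, with factors between 0.790 (dMSN 1) and 1.18 (yMSN). Young against precursor and striatal against hippocampal came from a model of lineage and stage with 2 residual degrees of freedom. There the spread comes from the disagreement between lineages and from the dMSN pair. The other comparisons came from 1 mean per cell group with 1, where the spread comes from the dMSN pair alone. SE is the size of the log2 change over the square root of F. Pairs of single libraries have a prior count of 2 and exact 95% counting intervals, which cover counting error only. On simulated data, recovery of 2-fold and 4-fold changes was 61% and 87% for young against precursor, 44% and 83% for dMSN against yMSN, and 45% and 78% for dMSN against SP. The simulated spread came from the model with 1 mean per cell group, so it held no disagreement between lineages. Only 200 of 19192 genes were changed, all upward, from the same level in every group. Recovery in the real comparisons may therefore differ. DESeq2 1.42.0, limma 3.58.1, RLE, no filter, TMM without the members and leaving out each library were alternatives, and scaling by library size alone and the split by pseudogene were added after seeing the data.

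The members, gene lists and comparisons were chosen with earlier results of these data known. Named members are the 5 farthest above and below the family median per comparison with at least 5 CPM, the paralogs and their parents, the stalk genes with Rpsa and Rps27a, members called against the family's direction, and up to 5 genes per list, and those whose gene starts are shown; not every gene so chosen is reported here. No coding lengths were at hand, so the level of one gene is not set against that of another and the planned naming by CPM per kb was dropped. Symbols were matched to RefSeq (GRCm38.p6), 82 by symbol and 2 by synonym, for windows at gene starts, and no coordinates of the files' build are given.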

Additional observations from a re-analysis of the deposited data

Results flagged for a closer look

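Rpl39l was the one member whose change to young tissue differed between the lineages by the test of the difference itself (edgeR quasi-likelihood test, adjusted p = 0.0318). Its counts were 54 in yMSN against 0 in SP, and 0 in yCA against 6 in HP. A count of 0 allows up to 3 counts per library, so in yMSN the level of 1.24 CPM stood against a floor of 0.0755 CPM in SP. DESeq2 gave no adjusted p for Rpl39l, and limma voom gave 0.113. The spread in this test comes from the dMSN pair alone, where Rpl39l had 8 and 1 counts. Rpl39l passed the filter on low counts only through yMSN, where it is high, so this call is no independent support for a difference. No group of these libraries was large enough for a check of single libraries that stand apart.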

How the results depend on the processing

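No paired analysis was possible because the groups compared share fewer than 2 replicate numbers: only dMSN has a replicate 2. In young against precursor tissue the members that fell numbered 3 in the main analysis, 11 with RLE scaling, 25 with DESeq2, 5 with limma voom and 20 with 1 mean per cell group, and between 1 and 34 when single libraries were left out (34 without yMSN, 33 without SP, 1 without HP or either dMSN library). The members that rose there numbered 0 or 1, and the median of members ran between -0.67 and -0.051. All genes that fell there numbered 2629 of 19192 in the main analysis, 3382 with RLE scaling and 3790 with DESeq2. They numbered 2705 with limma voom and 3940 with 1 mean per cell group. The all-gene median was 0.015 without yMSN or SP, 0.038 without yCA, 0.14 without HP and 0.10 without either dMSN library. Without SP, HP, yMSN or yCA a stage has 1 library, so no conclusion is drawn from the numbers called there. Rpl38 had a log2 change of 0.019 by library size alone, and between -0.37 and 0.35 when single libraries were left out. In dMSN against yMSN, library size alone gave 30 higher, 14 lower and a median of 0.26, DESeq2 gave 2 lower, and members with no listed pseudogene had a median of 0.55. By library size alone Rpl7l1 turned to -0.51, Rpl7 and Rpl39 to -0.43 and Rpl10 to -0.18. Rps4x turned to 0.029 with no filter, and ran between -0.13 and 0.027 when single libraries were left out. In dMSN against SP, library size alone gave 31 higher, 15 lower and a median of 0.36, and members with no listed pseudogene had 0.52. Striatal against hippocampal had 0 or 1 members higher and medians between -0.15 and 0.44 when single libraries were left out. The difference between lineages had 0 members higher with DESeq2 and with limma voom. Without mitochondrially encoded genes the family's share was 2.72% for SP, 3.02% for HP, 2.69% for yMSN and 1.88% for yCA. As a share of all reads it was 1.78% for SP, 1.96% for HP, 1.78% for yMSN, 1.28% for yCA and 2.14% for dMSN. The cause of these shifts was not tested. RLE scaling and DESeq2 lowered the median of all genes by 0.12 and 0.14 in young against precursor tissue. Without a dMSN library the fits of 1 mean per cell group have no residual degrees of freedom, so they give values with no test, and the difference between lineages cannot be had without SP, HP, yMSN or yCA. Depth limits Rpl3l, Rpl39l and Rpl10l.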

Other observations

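Over the 77 standard members, log2 CPM, which is not corrected for gene length, had r = 0.997 between HP and SP (Spearman rho = 0.995), r = 0.987 within the dMSN pair (rho = 0.982) and r = 0.534 between HP and dMSN 1 (rho = 0.544). Changes in yCA over HP and yMSN over SP had r = 0.516 (rho = 0.472). The number of listed pseudogenes and the dMSN against yMSN change had r = 0.298 (rho = 0.380). These are descriptions across genes, which share libraries and depth and are not independent replicates.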
